A study of Saccharomyces cerevisiae with 13 samples.

Results

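The genes described are the 46 that encode the DNA replication machinery of budding yeast: the origin recognition complex, the factors that license and fire origins, the replicative polymerases and primase, the sliding clamp and its loader, the single-strand binding protein, and the enzymes that join Okazaki fragments. MSH6 is a mismatch repair gene carried on the list; its product binds the sliding clamp. Members were taken by gene symbol from the table that names the array's probe sets. All 46 were measured, each by 1 probe set, among 5449 genes in all, and none of these probe sets was marked as shared between transcripts.

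Every sample was RNA from the haploid strain BY4741, a MATa strain with alterations at HIS3, LEU2, MET17 and URA3, kept in rich YPD medium and exposed for 30 min. The 13 arrays form 8 groups. The solvent DMSO had 3 arrays, and 2 arrays each were made for 100 nM rapamycin, for SMER1 and for SMER1 together with 100 nM rapamycin. The compounds SMER2 to SMER5 had 1 array each, and every SMER was given at 20 µM. Rapamycin inhibits TOR complex 1, the kinase that ties growth to nutrients. SMERs are compounds known by code names that enhance the effect of rapamycin, and the study sought expression signatures that set them apart from solvent and from rapamycin. The labels do not say whether replicates were separate cultures, so the tests measure the spread between arrays, which may be technical.

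In each cell cycle, replication origins are first bound by the origin recognition complex. Cdc6 and Cdt1 then load the Mcm2-7 helicase onto them in G1, and the helicase is later switched on by Cdc45, the GINS complex and the firing factors. Polymerase alpha-primase lays down primers, polymerase epsilon and polymerase delta extend the leading and lagging strands, and the clamp loaded by replication factor C holds them on the template. Many of these genes are transcribed in a burst at the G1/S transition under the factor MBF, made of Mbp1 and Swi6. CDC6 and several MCM genes peak somewhat earlier, around the end of mitosis. The subunits of the origin recognition complex and of the clamp loader vary less over the cycle as a rule.

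Values are log2 signals, and a difference is given as log2 ± the standard error from limma. Calls rest on an adjusted p (Benjamini-Hochberg, over all 5449 genes) under 0.05. The deposited table holds no detection calls, so how far a signal lay above background is unknown, and the few arrays limit the precision. The median signal of all genes lay between 10.998 and 11.087 on the 13 arrays. As a check of the strain, 6 a-cell genes lay between 8.93 and 13.93 over the arrays, and the alpha-cell genes MF(ALPHA)1, MF(ALPHA)2 and STE3 at 8.49 or below. SAG1, also an alpha-cell gene, lay between 9.84 and 10.43, and of the genes altered in BY4741, URA3 lay at 4.55 or below and MET17 at 5.78 or below. HIS3, also altered, lay high, between 12.14 and 13.18. LEU2 lay between 6.29 and 8.61, lowest on the SMER3 array and next lowest on the SMER2 array, at 7.69.

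The replication genes were lower with SMER1, whether or not rapamycin was present, and lower in part with SMER3. The median difference of the 46 genes from the DMSO mean was −0.45 and −0.46 on the SMER1 arrays, and −0.63 on both arrays of SMER1 with rapamycin. It was −0.06 and −0.04 on the rapamycin arrays and −0.25 on the SMER3 array. On the SMER2, SMER4 and SMER5 arrays it was −0.02, −0.005 and 0.001, within the range of the DMSO arrays themselves, −0.04 to 0.07. The arrays measured whole cultures, so fewer cells in the phase that expresses a gene and less of its mRNA per cell cannot be told apart.

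**Figure D1:**
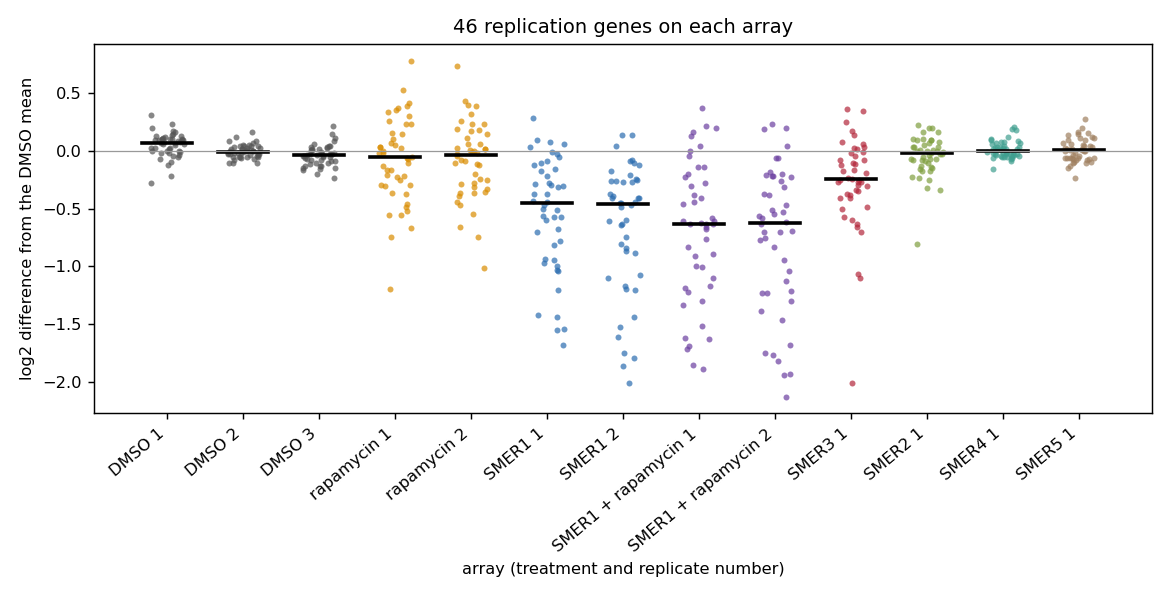
Log2 difference of each of the 46 replication genes (points) from its mean over the 3 DMSO arrays, by array, with the median of the 46 as a black bar. The points of the SMER1 arrays and of the SMER1 with rapamycin arrays reach down to −2.00 and −2.12, whereas those of SMER4 and SMER5 lie between −0.23 and 0.27.

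With SMER1 alone, 33 of the 46 genes fell and 0 rose against DMSO. Among all genes, 25% were called lower and 36.5% higher in this comparison. The members' median was −0.46, beside 0.09 over all genes. In 36 of the 46 genes both SMER1 arrays lay below all 3 DMSO arrays, against a background of 30.3%, and in 0 did both lie above, against 42.4%. A fall of at least 2-fold was called in 11 of 46, against 7.05% of all genes.

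The size of the fall differed between the parts of the machinery. All 4 genes of polymerase alpha-primase fell, with a median of −1.34, as did both genes of Okazaki fragment joining, with a median of −1.09, and 3 of 4 polymerase epsilon genes, with a median of −1.13. Of the 6 origin recognition genes 2 fell (median −0.25), a share near the 25% called lower among all genes. Of the 7 licensing genes 4 fell (median −0.41). The 6 clamp and clamp loader genes all fell (median −0.46). Replication protein A moved least, with 1 of 3 genes lower, also near the share of all genes, and a median of −0.16.

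POL1, the catalytic subunit of polymerase alpha, read 12.17, 11.94 and 11.89 in DMSO and 10.46 and 9.996 with SMER1. Both SMER1 values lay below every DMSO value. The difference was −1.77 ± 0.15 (adjusted p = 4.84e-05), a 3.42-fold lower signal. Its partner POL12, the regulatory subunit, read 10.87, 10.73 and 10.60 in DMSO and 9.29 and 8.94 with SMER1, again without overlap (−1.61 ± 0.14, adjusted p = 5.4e-05). The primase genes differed from each other. PRI2, the large subunit, fell by 1.065 ± 0.095 on the log2 scale, whereas PRI1, the catalytic subunit, fell by 0.23 ± 0.08 (adjusted p = 0.0344), a call that was lost in 4 of 16 other settings.

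The polymerase epsilon genes also split. DPB2, an essential subunit, read 11.29, 11.09 and 11.05 in DMSO and 9.59 and 9.40 with SMER1, a difference of −1.65 ± 0.11 (adjusted p = 1.59e-05). POL2, the catalytic subunit, fell by 1.22 ± 0.13 on the log2 scale and DPB4, a histone-fold subunit that also serves in a chromatin remodelling complex, by 1.05 ± 0.07. DPB3, the other histone-fold subunit, was not called (−0.11 ± 0.06, adjusted p = 0.173). In polymerase delta, the catalytic subunit gene POL3 fell by 0.94 ± 0.11 and POL32 by 0.78 ± 0.08, and POL31 was not called (0.10 ± 0.12, adjusted p = 0.516).

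MSH6, whose product recognises mismatches, had the smallest p of the list in this comparison. It read 11.20, 11.10 and 11.07 in DMSO and 9.45 and 9.27 with SMER1, a 3.4-fold lower signal (adjusted p = 3.87e-06). POL30, the sliding clamp PCNA, read 12.79, 12.74 and 12.64 in DMSO and 11.30 and 11.12 with SMER1, with no overlap (−1.52 ± 0.08, adjusted p = 5.68e-06). The loader genes RFC1 to RFC4 fell by less, between 0.275 and 0.46 on the log2 scale, and RFC5 by 0.915 ± 0.075. CDC9, the DNA ligase, and RAD27, the flap endonuclease, fell as well (−1.07 ± 0.12 and −1.105 ± 0.081).

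Of the 9 initiation genes 7 fell. CDC45, which joins the helicase when origins fire, read 10.38, 10.25 and 10.01 in DMSO and 9.01 and 8.69 with SMER1 (−1.36 ± 0.13, adjusted p = 7.39e-05). The firing factor genes SLD2, SLD3 and DPB11 fell by 0.755 ± 0.116, 0.41 ± 0.11 and 0.29 ± 0.10, the last a call lost in 6 of 15 other settings, and the GINS genes PSF3, SLD5 and PSF1 by 0.61 ± 0.06, 0.46 ± 0.10 and 0.45 ± 0.11. The remaining GINS gene PSF2 was not called (0.06 ± 0.075, adjusted p = 0.517), so the 4 subunits of this complex did not share a call. Among the helicase genes, MCM7, MCM2 and MCM3 fell by 0.56 ± 0.06, 0.475 ± 0.109 and 0.41 ± 0.06, while MCM4, MCM5 and MCM6 were not called (−0.08, 0.06 and −0.20). CDC6 fell by 0.48 ± 0.17 (adjusted p = 0.0444), a call that was lost in 5 of 15 other settings. MCM10, whose signal was the lowest of the members, was not called (−0.23 ± 0.13), but after quantile normalisation it was (−0.90, adjusted p = 0.00103). ORC1 and ORC2 fell by 0.73 ± 0.15 and 0.70 ± 0.09, and the other 4 origin recognition genes lay between −0.28 and 0.10 with no call.

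**Figure D2:**
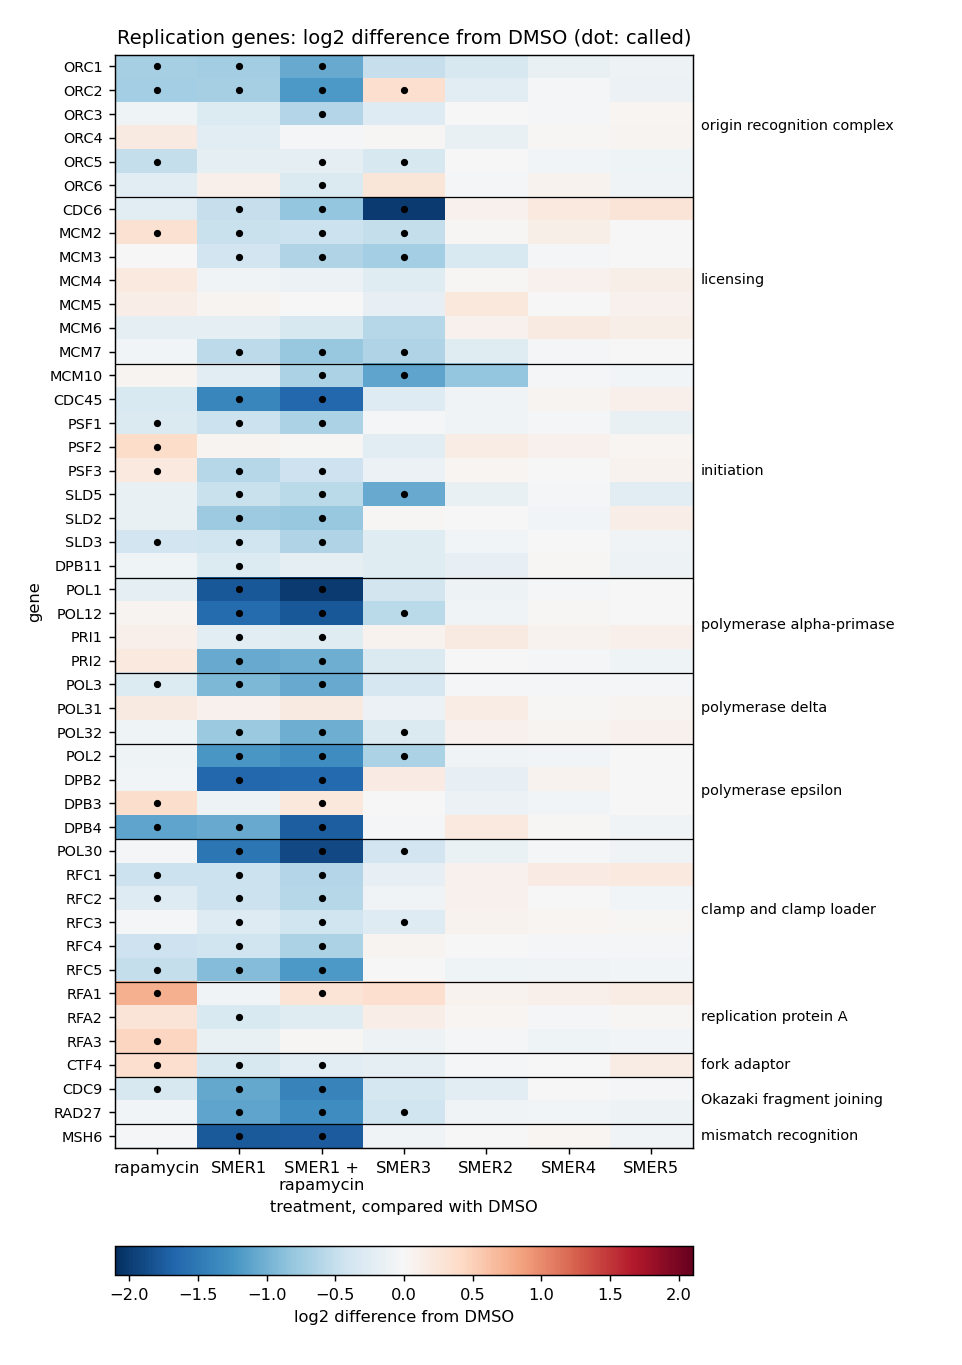
Log2 difference from DMSO of the 46 genes (rows, grouped by role) for each treatment (columns), on a colour scale from blue for lower to red for higher, with a dot where the gene was called. The SMER1 column and the column of SMER1 with rapamycin hold 33 and 35 genes called lower, the rapamycin column 12 lower and 7 higher, and the SMER2, SMER4 and SMER5 columns hold 0 calls.

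Rapamycin alone moved the replication genes both ways. Against DMSO 12 of the 46 fell and 7 rose, whereas 20.4% of all genes were called lower and 39.7% higher. Their median was −0.07, beside 0.16 over all genes. After quantile normalisation, under which the median of all genes was 0.02, the members' median was −0.13, with 15 lower and 5 higher, and of all calls 47.2% were lower in place of 33.9%. With the values as deposited, 26.1% of the members were called lower and 15.2% higher. Every rapamycin array lay below every DMSO array in 32.6% of the members, against 25.3% of all genes. Every rapamycin array lay above every DMSO array in 26.1% of the members, against 47.3% of all genes.

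The genes that fell with rapamycin included 3 of 6 for origin recognition and 4 of 6 for the clamp and its loader. Of the 7 licensing and the 4 polymerase alpha-primase genes 0 fell, and 20.4% of all genes were called lower. DPB4 changed most. It read 11.48, 11.425 and 11.46 in DMSO and 10.26 and 10.44 with rapamycin, a 2.15-fold lower signal and the 1 member called lower by at least 2-fold, against 6.4% of all genes (−1.11 ± 0.07, adjusted p = 1.47e-05). ORC2 read 11.41, 11.32 and 11.23 in DMSO and 10.57 and 10.66 with rapamycin, also without overlap (−0.71 ± 0.09, adjusted p = 0.000307). ORC1 and ORC5 fell by 0.705 ± 0.154 and 0.51 ± 0.08. Of the clamp loader, RFC5, RFC1, RFC4 and RFC2 fell by 0.50 ± 0.075, 0.46 ± 0.10, 0.44 ± 0.06 and 0.27 ± 0.06, while the clamp gene POL30 was not called (−0.025 ± 0.08, adjusted p = 0.805), although after quantile normalisation it was (−0.28, adjusted p = 0.0125). SLD3 fell by 0.40 ± 0.11. The calls of CDC9 (−0.34), PSF1 (−0.31) and POL3 (−0.29) were lost in 5, 6 and 7 of 16 other settings.

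The genes that rose with rapamycin were led by replication protein A, which coats single-stranded DNA. RFA1, its large subunit, read 11.91, 11.85 and 11.67 in DMSO and 12.585 and 12.54 with rapamycin. Both rapamycin values lay above every DMSO value, a 1.68-fold higher signal (0.75 ± 0.10, adjusted p = 0.000504). RFA3 rose by 0.45 ± 0.10, with 13.01 and 12.87 against a DMSO range of 12.44 to 12.555, and RFA2 was not called (0.27 ± 0.115, adjusted p = 0.08). PSF2 read 10.43, 10.56 and 10.43 in DMSO and 10.805 and 10.90 with rapamycin, without overlap. DPB3 read 10.57, 10.54 and 10.43 in DMSO and 10.86 and 10.91 with rapamycin, also without overlap. Such separation upward was common on these arrays, found in 47.3% of all genes, and rarer among the members, at 26.1%. PSF2 rose by 0.38 ± 0.075, DPB3 by 0.37 ± 0.06, CTF4, which tethers polymerase alpha to the helicase, by 0.35 ± 0.06, and MCM2 by 0.32 ± 0.11. PSF3 rose by 0.20 ± 0.06. The calls of MCM2 and PSF3 were lost in 6 and 4 of 16 other settings, and that of RFA3 after quantile normalisation (0.19, adjusted p = 0.1). MCM10 changed sign with quantile normalisation, from 0.06 ± 0.13, not called, to −0.41 (adjusted p = 0.0411).

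POL1, POL12, POL2, DPB2, MSH6 and RAD27 were not called with rapamycin, with differences between −0.21 and 0.06. Compared with rapamycin directly, SMER1 was lower in 26 of the 46 genes and higher in 2, ORC5 and ORC6. The background was 19.7% lower and 17.1% higher. ORC5 had means of 10.52 in DMSO, 10.32 with SMER1 and 10.01 with rapamycin, and ORC6 of 9.85, 9.96 and 9.63. With an intensity trend 1 gene was called higher. At least 2-fold lower were 9 members, against 3.06%. MSH6 differed most, with 11.14 and 11.03 in rapamycin and 9.45 and 9.27 in SMER1 (−1.73 ± 0.09, adjusted p = 3.04e-05), followed by POL12 (−1.68 ± 0.16) and DPB2 (−1.595 ± 0.122). For DPB4, ORC1, ORC2, RFC1 and RFC4 the difference between SMER1 and rapamycin was not called and lay between −0.02 and 0.06. For ORC2 its 95% interval was −0.22 to 0.23 and for DPB4 −0.125 to 0.24.

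With SMER1 and rapamycin together the median of the replication genes was the lowest of the 8 groups. Against DMSO 35 of the 46 genes fell and 2 rose (median −0.625, beside 0.09 over all genes), with 31.2% of all genes called lower and 39.6% higher. A fall of at least 2-fold was called in 16 genes, or 34.8% of the members, beside 11.7% of all genes. In 37 members, or 80.4%, both arrays lay below all DMSO arrays, against 35.9% of all genes. In 3 members both arrays lay above all DMSO arrays, against 44.4%. POL1 read 10.12 and 9.88 with both agents (−2.00 ± 0.15, adjusted p = 1.37e-05), a 4.01-fold lower signal than in DMSO, and POL30 read 10.87 and 10.80 (−1.89 ± 0.08, adjusted p = 1.08e-06). POL12 read 9.12 and 8.79, below its lowest DMSO value of 10.60 (−1.78 ± 0.14, adjusted p = 1.76e-05). None of these treated values reached a DMSO value. DPB4 read 9.74 and 9.71 (−1.73 ± 0.07, adjusted p = 9.34e-07). ORC2 read 10.13 and 10.09 (−1.21 ± 0.09), and CDC6, the loading factor, 9.55 and 9.76 against 10.24, 10.54 and 10.60 in DMSO (−0.80 ± 0.17, adjusted p = 0.00381).

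The genes that rose with both agents were RFA1 (0.28 ± 0.10, adjusted p = 0.0375) and DPB3 (0.22 ± 0.06, adjusted p = 0.016). These calls were lost in 6 and 2 of 16 other settings. For RFA1 the treated values, 12.18 and 12.01, lay between those of rapamycin alone and those of DMSO. The members that moved least were MCM5 (−0.01 ± 0.06), PSF2 (0.02 ± 0.075), RFA3 (0.03 ± 0.10) and ORC4 (−0.03 ± 0.21), none of them called. ORC4 read 10.52, 10.14 and 9.97 in DMSO, so its DMSO values alone spanned more than this difference.

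Against rapamycin alone, the combination lowered 35 of the 46 genes and raised 1, with a background of 28.2% lower and 18.1% higher and a median of −0.53 beside −0.08 over all genes. In 10 of them the fall was at least 2-fold, against 4.17%. POL30 fell from 12.67 and 12.73 to 10.87 and 10.80 (−1.86 ± 0.09, adjusted p = 2.66e-05). POL12 and POL1 fell by 1.84 ± 0.16 and 1.80 ± 0.17. All 3 replication protein A genes fell, by 0.425 to 0.53. The gene that rose was ORC5, from 10.05 and 9.97 to 10.32 and 10.31 (0.30 ± 0.08, adjusted p = 0.0219), and this call was lost in 3 of 16 settings.

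Against SMER1 alone, the combination lowered 5 genes and raised 1, where 11.7% of all genes were called lower and 4.96% higher. The members' median was −0.14, beside −0.001 over all genes. At least 2-fold lower were 0 members, against 3.62%. In 22 members both combination arrays lay below both SMER1 arrays, against 30.2%. Those that fell were DPB4 (−0.68 ± 0.08, adjusted p = 0.00179), ORC2 (−0.51 ± 0.095), ORC6 (−0.40 ± 0.11), POL30 (−0.37 ± 0.09) and RFC4 (−0.25 ± 0.07), and DPB3 rose (0.33 ± 0.07, adjusted p = 0.0173). The call of RFC4 was lost in 11 of 16 other settings. Leaving out single arrays left between 1 and 6 calls, with 1 without SMER1 replicate 1 or either array of the combination, and 3 without SMER1 replicate 2 or DMSO replicate 2. For MSH6 and DPB2 the difference was 0.01 with standard errors of 0.09 and 0.12. MCM10, the helicase activator, was not called (−0.44 ± 0.14, adjusted p = 0.0805), although its combination values, 7.70 and 7.525, lay below both SMER1 values, 8.19 and 7.91.

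The interaction, the SMER1 difference in the presence of rapamycin minus that in its absence, called 3 of the 46 genes, DPB4 and ORC5 with positive and PSF2 with negative values, against 4.42% positive and 21.3% negative among all genes. Calls of at least 2-fold in the negative direction numbered 0, against 4.48%. The members' median was −0.04 and that of all genes −0.18. With quantile normalisation these medians were 0.09 and 0.00, and 56.2% of all calls were negative in place of 82.8%. For POL1, POL2, CDC45, CDC9 and MSH6 the interaction lay between −0.02 and 0.05 with standard errors between 0.13 and 0.23. Other members had larger negative values without a call, among them POL12 (−0.23), POL30 (−0.35) and MCM10 (−0.495). Of the 46 members 26 had negative values, beside 68.9% of all genes.

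SMER3 gave another pattern, on 1 array. Its error was borrowed from the replicated groups, and its differences have no replicate check. Against DMSO 13 of the 46 genes fell and 1 rose, where 14.8% of all genes were called lower and 21.6% higher. On the SMER3 array 32 of the 46 genes, or 69.6%, lay below all 3 DMSO arrays, against a background of 37.4%, and 6 lay above all of them, against 40%. Leaving out DMSO replicate 2 left 8 called genes.

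With SMER3 3 members were called at least 2-fold lower, against 2.73% of all genes: CDC6 of the licensing genes, and MCM10 and SLD5 of the initiation genes. Of the 9 initiation genes only these 2 were called lower, and the median of the 9 was −0.25. CDC6 read 8.45, against 10.24 to 10.60 in DMSO, a 4.02-fold lower signal (−2.01 ± 0.22, adjusted p = 0.000361), and it was the lowest CDC6 value of the 13 arrays. MCM10 read 7.18 against 8.12 to 8.475 (−1.10 ± 0.16, adjusted p = 0.00166) and the GINS gene SLD5 9.28 against 10.275 to 10.47 (−1.06 ± 0.13, adjusted p = 0.000597). MCM3, MCM7 and MCM2 fell by 0.71 ± 0.07, 0.63 ± 0.08 and 0.505 ± 0.138. Of the polymerase genes POL2 fell by 0.66 ± 0.17, POL12 by 0.57 ± 0.18 and POL32 by 0.31 ± 0.10. The clamp genes POL30 and RFC3 fell by 0.405 ± 0.102 and 0.275 ± 0.081, RAD27 by 0.41 ± 0.10 and ORC5 by 0.34 ± 0.10. ORC2 rose by 0.345 ± 0.11, a call that was lost in 9 of 15 other settings. The calls of POL12, POL32, RFC3 and ORC5 were lost in 5, 7, 6 and 4 of them.

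SMER3 and SMER1, given at the same dose and time, were compared directly. SMER3 was higher in 22 of the 46 genes and lower in 5, with a background of 20.6% higher and 26.1% lower. The genes higher with SMER3 included DPB2, at 11.32 against 9.59 and 9.40 (1.82 ± 0.15, adjusted p = 0.000131), MSH6, at 11.05 against 9.45 and 9.27 (1.69 ± 0.12, adjusted p = 7.35e-05), and POL1, at 11.62 against 10.46 and 9.996 (1.39 ± 0.205, adjusted p = 0.00151). All 4 polymerase alpha-primase genes, 3 of 4 polymerase epsilon genes and both Okazaki genes were higher with SMER3, although the PRI1 call was lost in 10 of 15 other settings. The 5 lower genes were CDC6 (−1.53 ± 0.23, adjusted p = 0.00169), MCM10 (−0.87 ± 0.17), SLD5 (−0.60 ± 0.14), MCM3 (−0.30 ± 0.08) and PSF2 (−0.29 ± 0.10, lost in 9 of 15 other settings). For RFC3 the difference was 0.00 ± 0.09, with a 95% interval of −0.20 to 0.20. Against rapamycin, SMER3 was lower in 19 of the 46 genes and higher in 5, with a background of 29.9% and 20.7%. Here CDC6 was lower by −1.78 ± 0.23, and DPB4 and ORC2 were higher by 1.09 ± 0.095 and 1.05 ± 0.12.

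**Figure D3:**
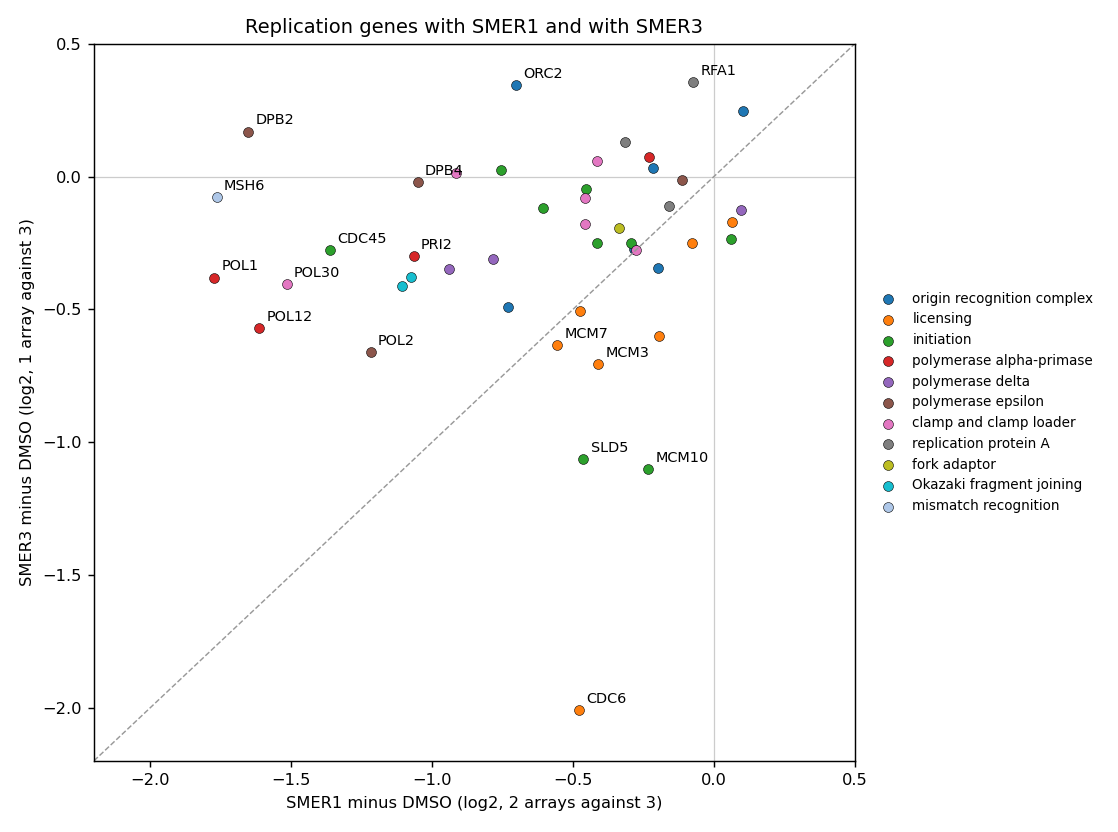
Log2 difference from DMSO of each of the 46 genes with SMER1 (x axis, 2 arrays) and with SMER3 (y axis, 1 array), coloured by role, with a dashed line where both are equal; both axes share the 3 DMSO arrays. CDC6 (−0.48 and −2.01), MCM10 (−0.23 and −1.10, or −0.90 and −1.67 after quantile normalisation) and SLD5 (−0.46 and −1.06) lie below the line, and DPB2 (−1.65 and 0.17), MSH6 (−1.765 and −0.08) and POL1 (−1.77 and −0.38) far above it.

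With SMER2, SMER4 and SMER5, limma called 0 of the 46 genes. Among all genes 0.22% were called lower and 0.0918% higher with SMER2, and 0% with SMER4 and SMER5. At an unadjusted p under 0.05, with no correction for the number of genes, 4 members passed with SMER2 and 0 with SMER4 or SMER5. The share of all genes under this limit was not counted, so the 4 cannot be set apart from it. With SMER2, MCM10 read 7.48, below the DMSO range of 8.12 to 8.475 (−0.81 ± 0.16, adjusted p = 0.148). The other 3 were MCM3 (−0.32 ± 0.07), MCM7 (−0.25 ± 0.08) and MCM5 (0.22 ± 0.08). For a lone array, the median half-width of the 95% interval over the members was 0.30. On the SMER2, SMER4 and SMER5 arrays 15, 7 and 13 members lay below all DMSO arrays. These were 32.6%, 15.2% and 28.3% of the members, against backgrounds of 29.9%, 17.6% and 22%. Above all DMSO arrays lay 19.6%, 10.9% and 21.7%, against 20%, 21.5% and 23.8%. With SMER4 the differences lay between −0.16 and 0.20, and with SMER5 between −0.23 and 0.27.

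**Figure D4:**
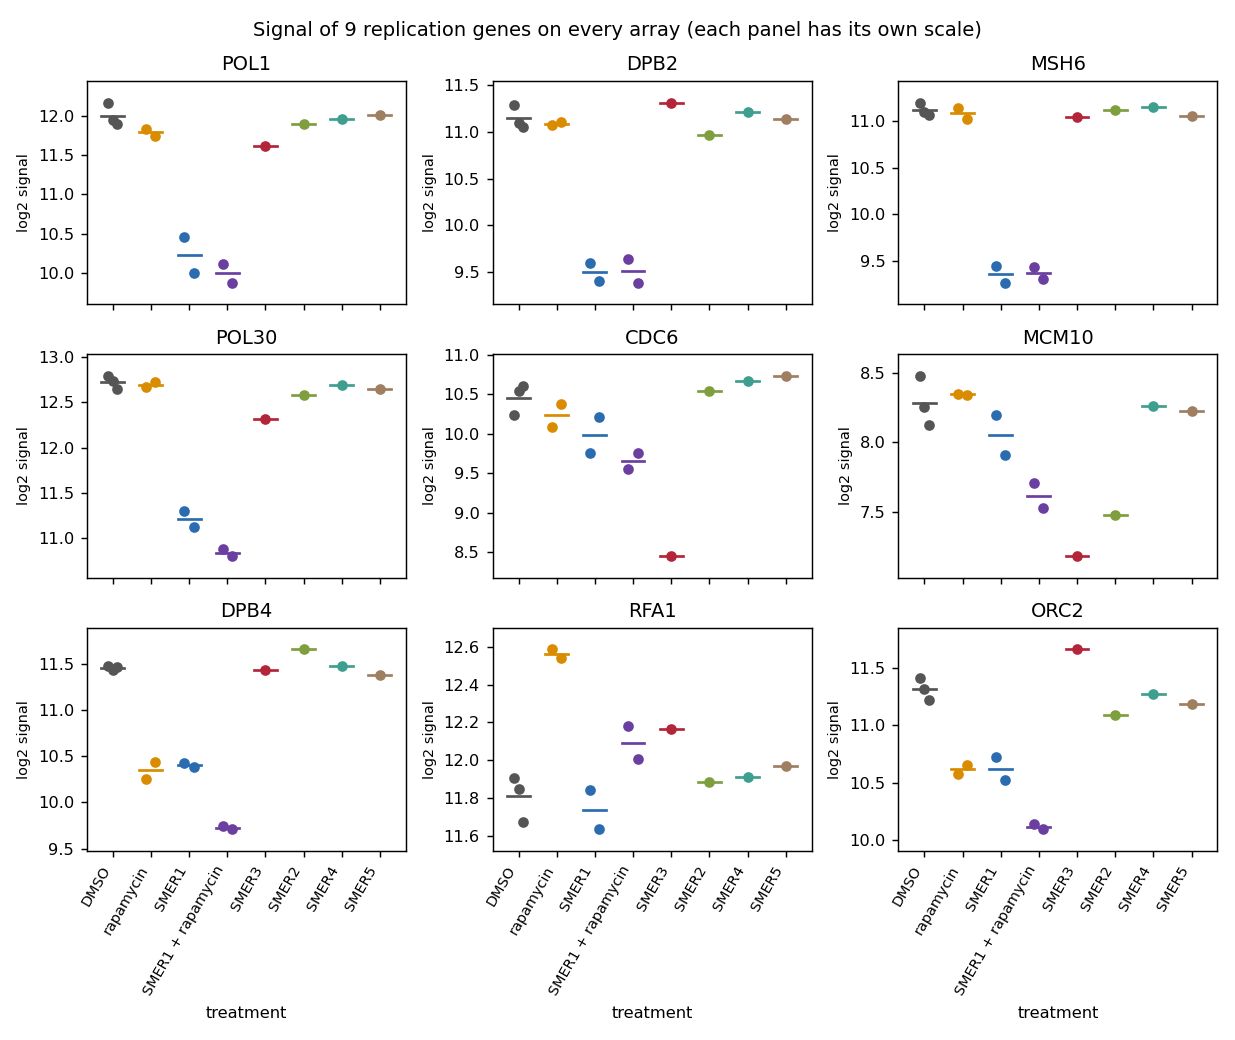
Log2 signal of 9 replication genes on each of the 13 arrays (points) by treatment, with a bar at each group's mean; each panel has its own scale. POL1, DPB2, MSH6 and POL30 are low on the 4 arrays that hold SMER1, CDC6 and MCM10 are lowest with SMER3, DPB4 and ORC2 are low with rapamycin as well as with SMER1, and RFA1 is highest with rapamycin.

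Other genes of replication were read from 7 further lists, of which 45 of 47 genes were analysed here. With SMER1 31 of the 45 fell and 1 rose (median −0.58), with rapamycin 13 fell and 7 rose (median −0.10), with both agents 32 fell and 4 rose (median −0.72), and with SMER3 12 fell and 2 rose (median −0.20). Over all genes the shares called lower and higher were 25% and 36.5% with SMER1, 20.4% and 39.7% with rapamycin, 31.2% and 39.6% with both and 14.8% and 21.6% with SMER3. The medians of all genes were 0.09, 0.16, 0.09 and 0.015. The S phase cyclin gene CLB6 fell by 1.78 ± 0.085 with SMER1, 0.46 ± 0.085 with rapamycin and 1.07 ± 0.11 with SMER3. RNH201, the catalytic subunit of ribonuclease H2, fell by 1.59 ± 0.095 with SMER1 and 2.15 ± 0.095 with both agents. The fork protection gene TOF1 and the alternative clamp loader gene CTF18 fell by 1.21 ± 0.23 and 1.61 ± 0.29 with SMER1.

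Of 7 kinase and licensing partner genes, 6 fell with SMER1, and 4 fell and 1 rose with SMER3, and the one that rose was TAH11. TAH11, which encodes Cdt1, the partner of Cdc6 in helicase loading, had a mean of 10.91 in DMSO, 10.36 with rapamycin and 10.29 with SMER1, and read 12.29 with SMER3. It fell with rapamycin (−0.55 ± 0.08) and with SMER1 (−0.62 ± 0.08) and rose with SMER3 (1.38 ± 0.10, adjusted p = 5.27e-05), a direct difference from SMER1 of 2.00 ± 0.10. Of 8 deoxynucleotide supply genes 3 fell and 1 rose with SMER1, and 1 fell and 1 rose with SMER3. With rapamycin 1 fell and 5 rose (median 0.36, beside 0.16 over all genes). Of all genes 25% were called lower and 36.5% higher with SMER1. These shares were 20.4% and 39.7% with rapamycin, and 14.8% and 21.6% with SMER3. RNR1, the large subunit of ribonucleotide reductase, fell by 1.68 ± 0.08 with SMER1 and 0.88 ± 0.10 with SMER3, and its damage-inducible counterpart RNR3 rose by 0.28 ± 0.095 and 1.39 ± 0.12. The thymidylate synthase gene CDC21 fell with SMER1 (−1.19 ± 0.11) and rose with rapamycin (0.38 ± 0.11).

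Genes that mark cell cycle position were called in part. Of 6 G1/S transcription factor and inhibitor genes 3 fell with SMER1, 3 fell with SMER3 and 0 were called with rapamycin. The MBF subunit gene SWI6 fell by 0.56 ± 0.10 with SMER1, MBP1 was not called (−0.13 ± 0.09), and NRM1, a corepressor of MBF that is itself transcribed at G1/S, fell by 1.39 ± 0.07 with SMER1 and 1.44 ± 0.09 with SMER3. Of 3 G1 cyclin genes 2 fell with SMER1, 3 fell with SMER3 and 2 rose with rapamycin. Among them CLN2 fell with SMER1 (−1.19 ± 0.10) and SMER3 (−0.77 ± 0.13) and rose with rapamycin (0.36 ± 0.10). CLN3, the upstream G1 cyclin, fell with SMER3 (−1.33 ± 0.15) and was not called with SMER1 (0.20 ± 0.12). Of 7 core histone genes, which mark S phase, 1 fell and 1 rose with SMER1, 0 were called with SMER3, and 6 rose with rapamycin, where 39.7% of all genes were called higher. With SMER1 25% of all genes were called lower and 36.5% higher. Of 5 G2/M genes 3 fell with SMER1 and 4 with SMER3 (medians −0.42 and −0.92), and 1 rose with rapamycin. The largest falls were those of the mitotic cyclin gene CLB2, −0.87 ± 0.20 with SMER1 and −2.56 ± 0.26 with SMER3. Of 7 M/G1 daughter genes 1 rose with SMER1, 3 rose with rapamycin and 1 fell with SMER3, shares near those of all genes for rapamycin (39.7% higher) and SMER3 (14.8% lower). The part of cell cycle position in the differences of the replication genes was not tested.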

How the data were processed

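RNA of 13 yeast samples was hybridised to one-colour Affymetrix arrays after biotin labelling, per the labels' protocols. The authors deposited log2 signal intensities for 5716 probe sets; the log2 scale was judged from the values, and how probes were summarised, background corrected and normalised is not given in the sources used here. Of the probe sets, 5498 had 1 gene symbol and 218 had none; 12 symbols were updated through gene identifiers to the R64 gene table. The probe set with the highest mean was kept for the 47 genes with several.

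Group means for all 8 groups were fitted with limma 3.58.1 in R 4.3.3 to the deposited values of 5449 genes, with eBayes and two-sided tests; 5 residual degrees of freedom were joined by 2.36 from the prior. The step was run on simulated data with independent errors and effects in the SMER1 group only. That run does not cover deviations shared between arrays, nor calls from lone arrays. Alternatives were quantile normalisation, median centring, averaged probe sets, leaving out the lowest 25% of genes, an intensity trend, replicated groups only, a replicate block, a 2-fold threshold, and leaving out each replicate. Member genes and lists were chosen with earlier results of these data known. Values on every array are given for the largest and smallest change in each role group, the 3 largest per comparison of replicated groups, calls against the main direction and the called interactions; the values of some are given as ranges or in part. A planned search of promoters for motifs was not run.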

Additional observations from a re-analysis of the deposited data

Results flagged for a closer look

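The interaction test called 3 replication genes, with positive values in 4.35% and negative values in 2.17% of the members. Of all genes 4.42% were called positive and 21.3% negative, and the median interaction of all genes was −0.18. ORC5 had an interaction of 0.50 ± 0.11 (adjusted p = 0.0179): SMER1 alone differed from DMSO by −0.20, without a call, and the combination from rapamycin by 0.30. DPB4 had an interaction of 0.43 ± 0.105 (adjusted p = 0.0232), with −1.05 for SMER1 against DMSO and −0.62 for the combination against rapamycin. PSF2 had an interaction of −0.42 ± 0.11 (adjusted p = 0.0315), with 0.06 for SMER1 against DMSO and −0.36 for the combination against rapamycin. Over 16 other settings the adjusted p ranged from 0.00444 to 0.0649 for ORC5, from 0.00501 to 0.0847 for DPB4 and from 0.00829 to 0.104 for PSF2, and none of the 3 was called in every setting.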

How the results depend on the processing

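With a 2-fold threshold added, the called replication genes numbered 1 for rapamycin, 11 for SMER1, 16 for SMER1 with rapamycin and 3 for SMER3 against DMSO, 10 for the combination against rapamycin, 0 against SMER1, 9 for SMER1 against rapamycin, 9 for SMER3 against SMER1, 4 for SMER3 against rapamycin and 0 for the interaction. Leaving out single arrays gave 14 to 21, 29 to 32, 31 to 38 and 8 to 13 calls for those 4 comparisons with DMSO, 26 to 36 for the combination against rapamycin, 1 to 6 against SMER1, 23 to 28 for SMER1 against rapamycin, 22 to 26 and 16 to 24 for SMER3 against SMER1 and rapamycin, and 0 to 3 for the interaction. Arrays of the same replicate number deviated together with r from 0.07 to 0.60, and in 2 of 12 pairs below 0.1. Those 2 were DMSO replicate 2 with rapamycin (0.085) and with SMER1 (0.07). Among rapamycin, SMER1 and the combination r was 0.44 to 0.60, the same for both numbers because each group had 2 arrays. The main fit did not take the numbers as pairs, so deviations shared by number stayed in its error. With the replicate block, 18 genes were called for the combination against SMER1 (14 lower and 4 higher, beside 1118 and 686 of all 5449 genes). For the interaction 11 were called, 7 negative and 4 positive, beside 1860 and 517 of all genes. With SMER2 6 were called, 5 lower and 1 higher, beside 363 and 150 of all genes. With SMER3 26 were called lower and 0 higher, beside 1393 and 1457 of all genes. ORC4 with SMER3 became −0.275 (adjusted p = 0.00981). Quantile normalisation turned MCM10 with rapamycin to −0.41 (adjusted p = 0.0411). It moved the share of lower calls among all genes from 40.6% to 52.4% for SMER1, from 40.6% to 56.9% for SMER3, from 70.2% to 58.3% for the combination against SMER1 and from 70.6% to 54.5% for SMER2, with 36, 16, 3 and 0 members lower and 0, 0, 2 and 0 higher. The causes of these shifts were not tested. Called in every setting other than the 2-fold threshold were 11 of 19 genes for rapamycin, 27 of 33 for SMER1, 30 of 37 for the combination and 8 of 14 for SMER3. The promoter motif description was not run, and the fit of replicated groups alone gives no value for the lone arrays.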

Other observations

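The genes named here were chosen after their values were seen. Of 4 translesion synthesis genes 1 fell with SMER1, 1 with rapamycin and 1 with SMER3, where 25%, 20.4% and 14.8% of all genes were called lower. REV1, a deoxycytidyl transferase that recruits other translesion polymerases, fell with rapamycin (−0.85 ± 0.135), with SMER1 (−0.84 ± 0.135) and with both (−0.997 ± 0.135, adjusted p = 0.00032), and its interaction was positive (0.69). REV3, the catalytic subunit of polymerase zeta, rose with both agents (0.78 ± 0.22, adjusted p = 0.0139) and was not called with either alone (0.52 and 0.54). RAD30, polymerase eta, fell with SMER3 (−0.52) and was not called with rapamycin or SMER1 (−0.10 and 0.004). The nuclease-helicase gene DNA2 rose with both agents (0.56 ± 0.20, adjusted p = 0.0354).

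Among 8 genes of chromatin assembly behind the fork, 5 fell with SMER1, 3 fell and 1 rose with rapamycin, and 0 were called with SMER3. Of all genes 25% were called lower with SMER1, 20.4% lower and 39.7% higher with rapamycin, and 14.8% lower with SMER3. The histone chaperone gene ASF1 fell by 0.97 ± 0.07 with SMER1 and by 0.27 ± 0.07 with rapamycin. POB3, a subunit of the FACT complex, rose with rapamycin (0.41 ± 0.09, adjusted p = 0.00428).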
